A study of Mus musculus with 2 samples.

Results

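A set of 10 genes that the tumor suppressor p53 is known to switch on was followed in mouse liver. They were chosen by symbol, as textbook p53 targets with roles in growth arrest, cell death or feedback on p53. The choice was made with earlier results of these data known. All 10 of them were found among the 52489 annotated genes of the count files. The study compared livers of mice lacking the RNA methyltransferase METTL3 in hepatocytes with livers of control mice. The library labelled HKO came from Mettl3 flox/flox Alb-Cre+/- mice and the library labelled flox from Mettl3 flox/flox mice. Both were C57BL/6 animals, 8 weeks old and fed normal chow, and for each genotype the RNA of 4 livers was pooled and sequenced as 1 library. Both groups carry the floxed alleles and only the HKO mice carry Cre, so an effect of Cre itself cannot be told apart from that of the deletion. The Alb promoter drives Cre in hepatocytes, and the other cells of the liver keep Mettl3.

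As each genotype was sequenced once, nothing measures the spread between pools. Every difference described here is a difference between 2 libraries, and it cannot be assigned to the genotype. Total counts were 18438169 in the library labelled HKO and 21456900 in the library labelled flox, and mitochondrially encoded genes took 4.05% of them in the library labelled HKO and 3.68% in the library labelled flox. Levels are in CPM, counts per 1000000 counts of the scaled library, and 1 count equals 0.0494 CPM in the library labelled HKO and 0.0511 CPM in the library labelled flox. The scaling used trimmed mean of M-values (TMM) factors, and each ratio has the library labelled HKO on top and the library labelled flox below, with a prior of 0.5 counts added. The range after each ratio is its exact 95% binomial interval, which covers counting error only. A gene with at least 20 counts over both libraries is called past 2-fold when its log2 ratio is at least 1 in size and that interval excludes equality. Mettl3 itself had 220 counts in the library labelled HKO and 156 in the library labelled flox, a log2 ratio of 0.45 (0.15 to 0.75). This goes against the label, and the libraries are therefore called by their labels throughout. The gene count checks the deletion poorly, because reads outside the floxed exons and reads from other cell types are still counted, and 18.4% of the exonic bases of Mettl3 lie in another gene. All 8 hepatocyte markers were measured and their summed level was 78343 CPM in the library labelled HKO and 117855 CPM in the library labelled flox, so the labelled tissue was borne out in both libraries.

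The p53 protein is a transcription factor that accumulates when DNA is damaged or when growth, ribosome assembly or nutrient supply is disturbed. It binds pairs of a short decamer motif near its targets. Some targets halt the cell cycle, others permeabilize mitochondria or act as cell surface receptors, and Mdm2 closes a negative loop by marking p53 for degradation. In hepatocytes several of these genes are also induced by other routes, such as growth factor and stress signaling, so that the level of a p53 target is not a measure of p53 activity. In bulk liver RNA, fewer cells of a type and less RNA per cell cannot be told apart.

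Promoter sequence was examined first, since these genes are defined by a shared regulator. RefSeq windows ran from 250 bases before to 50 bases after a transcription start (GRCm38.p6). They were examined for 8 of the 10 genes, with 11 windows. Pmaip1 and Tnfrsf10b were not examined, so the counts of matches below say nothing of their promoters. A full match to the p53 decamer, searched on both strands, lay in 4 of the 11 windows. These were windows of 4 genes (Bax, Ccng1, Cdkn1a and Mdm2). Such a match lay in 8.36% of all 32851 windows. An adjacent pair of decamers with at most 3 mismatches in all lay in windows of 3 genes and in 1.38% of all windows, and a pair with at most 1 mismatch in 0.0670% of them. The 3 pairs are printed with 20 bases on either side, the coordinates are those of the printed stretch, and capitals mark the pair. They show the range from near perfect to loose matches. The Cdkn1a pair (chr17:29090908-29090967, plus strand) has 1 mismatch and lies 51 to 32 bases before the upstream RefSeq start, outside annotated exons. The window of the downstream Cdkn1a start held no decamer or pair. The Ccng1 pair (chr11:40755442-40755501, minus strand) has 1 mismatch and lies 195 to 176 bases before the start, also outside annotated exons. The Bbc3 pair (chr7:16309466-16309525, plus strand) has 3 mismatches and lies 97 to 78 bases before a RefSeq start, in an intron of the annotated Bbc3 gene.
Cdkn1a: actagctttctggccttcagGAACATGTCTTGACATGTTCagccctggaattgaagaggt
Ccng1: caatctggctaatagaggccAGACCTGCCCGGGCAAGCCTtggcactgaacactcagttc
Bbc3: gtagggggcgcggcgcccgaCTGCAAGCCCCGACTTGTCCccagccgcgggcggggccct

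The Btg2 window held no decamer or pair. It is shown for a different element that was searched after its sequence had been read, the cyclic AMP response element TGACGTCA, which reads the same on both strands and occurs in 1.79% of all windows. Capitals mark this element, 166 to 159 bases before the start (chr1:134079294-134079341, minus strand, outside annotated exons).
Btg2: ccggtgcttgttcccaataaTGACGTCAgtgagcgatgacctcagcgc
A match describes letters in a window and is not a binding site, and a window without one says only that the letters are not in it.

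Most of the 10 genes had their higher level in the library labelled HKO. Past 2-fold higher in the library labelled HKO were 5 of them (Btg2, Phlda3, Pmaip1, Tnfrsf10b and Eda2r), and 0 were past 2-fold lower. Over all 14421 genes with enough counts the same call was made for 5.73% in the higher and 4.66% in the lower direction. The interval lay above equality for 9 of the 10, against 28.3% of all genes, and held equality for Bbc3. The median log2 ratio of the 10 was 1.35, beside a median of 0.01 and quartiles of -0.31 and 0.37 over all genes. All 10 passed the minimum of 20 counts over both libraries, but Pmaip1, Tnfrsf10b and Eda2r passed it only through the library labelled HKO, with 6 counts each in the library labelled flox. A gene that enters this way had to differ. The count of 5, the 9 intervals above equality and the median of 1.35 therefore do not support a difference of the set. With a minimum of 100 counts these 3 leave, and 2 of the other 7 (Btg2 and Phlda3) were past 2-fold higher with a median of 0.45. Of all genes 4.09% were then past 2-fold higher and 2.82% lower. An interval narrows as counts rise, so the share of 28.3% also depends on how abundant the genes are. The 10 genes were chosen with earlier results of these data known, so their comparison with all genes is not independent of these data. When total counts replace the TMM factors every log2 ratio gains 0.27. Ccng1 is then also past 2-fold, making 6 of 10, while the share of all genes becomes 10.4% higher and 2.84% lower.

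**Figure D1:**
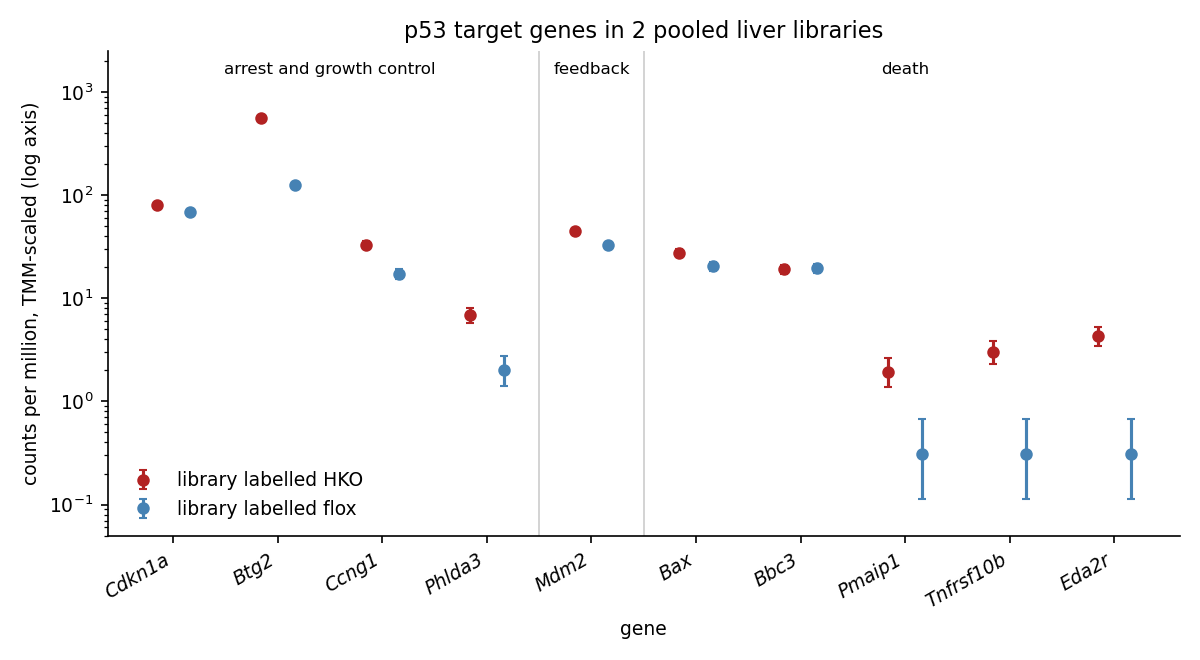
Level of each p53 target gene in TMM-scaled CPM (log axis) in the library labelled HKO (red) and the library labelled flox (blue), with bars for the exact 95% Poisson counting interval of 1 library. Btg2 stands highest in both libraries, the points of Bbc3 lie level, and Pmaip1, Tnfrsf10b and Eda2r are near 0.307 CPM in the library labelled flox.

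The arrest and growth control genes were led by Btg2. Gene positions are those of GRCm38. Btg2 (ENSMUSG00000020423, chr1:134075170-134079120, minus strand), an antiproliferative protein that recruits the deadenylation machinery to mRNA, had 11184 counts in the library labelled HKO and 2465 in the library labelled flox. Its level was 553 CPM in the library labelled HKO and 126 CPM in the library labelled flox, a 4.39-fold difference (4.20 to 4.59). The library labelled HKO was thus the high one by far more than the counting error. This was the largest gain among the 10 genes in absolute terms, 427 CPM, and its ratio ranked 130 among the 14421 genes. Btg2 is also known as an immediate early gene that growth factors induce within minutes.

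Phlda3 (ENSMUSG00000041801, chr1:135766119-135769136, plus strand) encodes a small pleckstrin homology protein that keeps the kinase AKT off the membrane. It had 138 counts in the library labelled HKO and 39 in the library labelled flox, or 6.82 CPM in the library labelled HKO and 1.99 CPM in the library labelled flox. Its ratio was 3.39-fold (2.38 to 5.02), the second of the 4 arrest genes to be past 2-fold.

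Cyclin G1, the product of Ccng1, partners protein phosphatase 2A and acts in the feedback on p53. Ccng1 (ENSMUSG00000020326, chr11:40748552-40755311, minus strand) had 668 counts in the library labelled HKO and 338 in the library labelled flox, or 33.0 CPM in the library labelled HKO and 17.3 CPM in the library labelled flox. Its ratio of 1.91-fold (1.67 to 2.19) sat just under the 2-fold limit with an interval that spans it. With scaling by total counts the ratio was 2.30-fold.

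Cdkn1a, which encodes the cyclin-dependent kinase inhibitor p21 and is the classical arrest target, differed little. Cdkn1a (ENSMUSG00000023067, chr17:29090976-29100727, plus strand) had 1608 counts in the library labelled HKO and 1347 in the library labelled flox, or 79.5 CPM in the library labelled HKO and 68.9 CPM in the library labelled flox. The ratio was 1.15-fold (1.07 to 1.24), above equality by more than the counting error but the smallest of the 4 arrest genes. An antisense gene overlaps 7.68% of its exonic bases.

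Together the 4 arrest genes summed to 672 CPM in the library labelled HKO and 214 CPM in the library labelled flox. Most of that difference was Btg2, and the other 3 summed to 119 CPM in the library labelled HKO and 88.1 CPM in the library labelled flox, a ratio of 1.35. The median log2 ratio of the 4 was 1.35, with 2 of them past 2-fold.

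The death genes fell into a scarce and an abundant set. The scarce ones were the death receptor gene Tnfrsf10b, its TNF receptor family relative Eda2r and the BH3-only gene Pmaip1. These genes were all past 2-fold higher in the library labelled HKO, and the more abundant Bax and Bbc3 were not. Eda2r (ENSMUSG00000034457, chrX:97333840-97377216, minus strand), a receptor for ectodysplasin A2 that lacks a death domain, had 87 counts in the library labelled HKO and 6 in the library labelled flox. Its level was 4.30 CPM in the library labelled HKO and 0.307 CPM in the library labelled flox, a 13.0-fold difference (6.19 to 39.3). This was the largest ratio of the 10 and ranked 27 among the 14421 genes.

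Tnfrsf10b (ENSMUSG00000022074, chr14:69767472-69784411, plus strand) encodes the mouse receptor for the death ligand TRAIL. It had 61 counts in the library labelled HKO and 6 in the library labelled flox, or 3.02 CPM in the library labelled HKO and 0.307 CPM in the library labelled flox. The ratio was 9.15-fold (4.27 to 27.8). Its ligand gene, Tnfsf10, had 113 counts in the library labelled HKO and 86 in the library labelled flox, with an interval holding equality (0.952 to 1.70), and the ectodysplasin gene Eda had 91 counts in the library labelled HKO and 58 in the library labelled flox (1.08 to 2.15). Neither ligand gene was past 2-fold. Both are named here after their values were seen.

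Pmaip1 (ENSMUSG00000024521, chr18:66458533-66465565, plus strand) encodes Noxa, which neutralizes the survival protein MCL1. It had 39 counts in the library labelled HKO and 6 in the library labelled flox, or 1.93 CPM in the library labelled HKO and 0.307 CPM in the library labelled flox, a 5.88-fold difference (2.64 to 18.2). For these 3 genes the upper ends of the intervals reach 18.2 to 39.3, since the 6 counts in the library labelled flox set the width, and their ratios are descriptions because the minimum was met only through the library labelled HKO. Of all genes with 20 to under 100 counts over both libraries, 11.4% were past 2-fold higher, a share which was 6.13% from 100 to under 1000 counts and 1.83% for at least 1000 counts. Calls among scarce genes are thus more frequent in these libraries than among abundant ones such as Btg2.

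Bax (ENSMUSG00000003873, chr7:45461697-45466898, minus strand), the pore-forming effector of the mitochondrial pathway, had 558 counts in the library labelled HKO and 399 in the library labelled flox. Its level was 27.6 CPM in the library labelled HKO and 20.4 CPM in the library labelled flox, a 1.35-fold difference (1.19 to 1.54). A gene on the same strand overlaps 12.2% of its exonic bases. Bbc3 (ENSMUSG00000002083, chr7:16308393-16318205, plus strand), which encodes the BH3-only activator Puma, had 388 counts in the library labelled HKO and 380 in the library labelled flox, or 19.2 CPM in the library labelled HKO and 19.4 CPM in the library labelled flox. Its log2 ratio was -0.02 (-0.23 to 0.19), so no difference was detectable, and the interval of the ratio ends at 1.14-fold. With scaling by total counts the sign turns and the log2 ratio is 0.25.

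The 5 death genes summed to 56.0 CPM in the library labelled HKO and 40.7 CPM in the library labelled flox. Bax and Bbc3 made up 46.8 CPM of this in the library labelled HKO and 39.8 CPM in the library labelled flox, whereas the 3 scarce genes summed to 9.25 CPM in the library labelled HKO and 0.920 CPM in the library labelled flox. The median log2 ratio of the 5 was 2.56, with 3 of 5 past 2-fold, and it rests on the 3 scarce genes, since with a minimum of 100 counts it is 0.21.

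**Figure D2:**
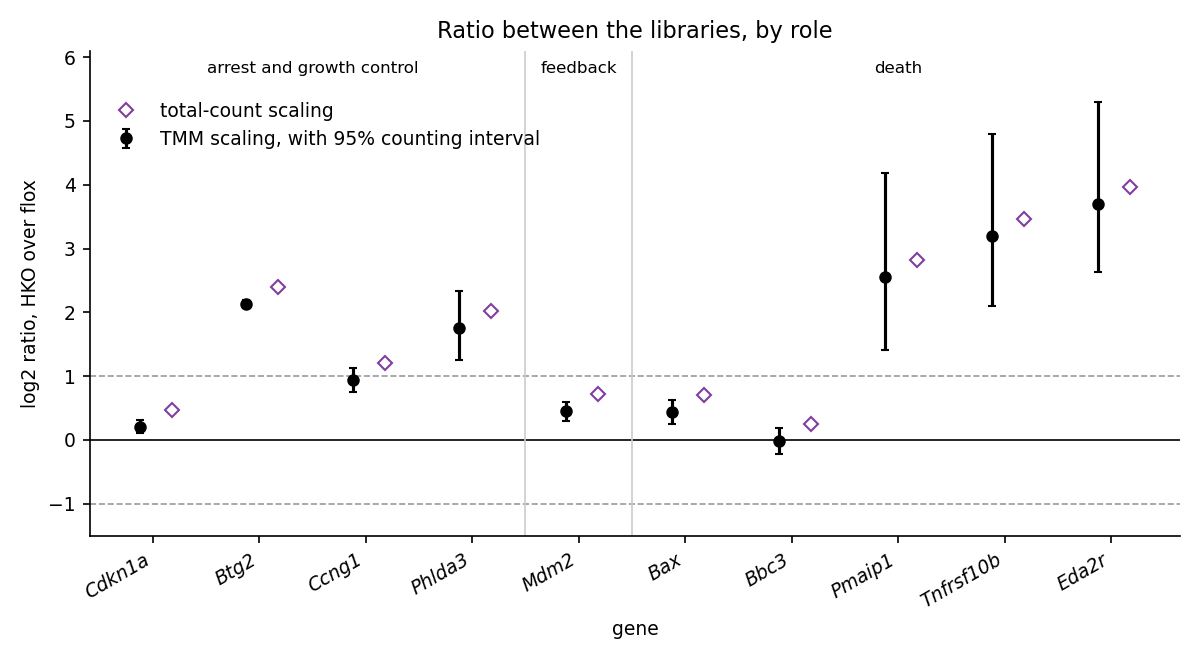
Log2 ratio of the library labelled HKO over the library labelled flox for each p53 target gene, with TMM scaling and its 95% counting interval (black) and with scaling by total counts (open diamonds), and dashed lines at 2-fold. The intervals of Pmaip1, Tnfrsf10b and Eda2r are the widest, Cdkn1a and Bbc3 lie closest to 0, and Ccng1 crosses the upper line under total-count scaling.

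Mdm2 (ENSMUSG00000020184, chr10:117688875-117710758, minus strand), the ubiquitin ligase that degrades p53 and the feedback arm of the set, had 899 counts in the library labelled HKO and 638 in the library labelled flox. Its level was 44.5 CPM in the library labelled HKO and 32.6 CPM in the library labelled flox, a 1.36-fold difference (1.23 to 1.51). Trp53, which encodes p53 itself and is regulated mostly as a protein, had 491 counts in the library labelled HKO and 378 in the library labelled flox, a 1.26-fold difference (1.10 to 1.44). Both differed by more than the counting error and neither was past 2-fold.

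Levels per kilobase of exon show how unequal the 10 genes are. In the library labelled HKO, Btg2 reached 202 CPM per kb, Cdkn1a 22.4, Bax 17.5, Ccng1 9.40, Bbc3 9.03, Mdm2 8.75 and Phlda3 4.38, followed by Eda2r at 0.730, Pmaip1 at 0.706 and Tnfrsf10b at 0.553 CPM per kb. In the library labelled flox the order was Btg2 at 45.9 CPM per kb, Cdkn1a 19.4, Bax 12.9, Bbc3 9.15, Mdm2 6.42, Ccng1 4.92 and Phlda3 1.28, followed by Pmaip1 at 0.112, Tnfrsf10b at 0.0563 and Eda2r at 0.0521 CPM per kb. The counting intervals of Ccng1, Bbc3 and Mdm2 overlapped in the library labelled HKO, and the intervals of the scarce 3 overlapped in both libraries, so their order is not fixed by these counts. Btg2 alone held 71.6% of the summed level of the 10 genes in the library labelled HKO and 43.8% in the library labelled flox. The sum was 773 CPM in the library labelled HKO and 287 CPM in the library labelled flox, a ratio of 2.69, and without Btg2 it was 220 CPM in the library labelled HKO and 161 CPM in the library labelled flox, a ratio of 1.36.

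**Figure D3:**
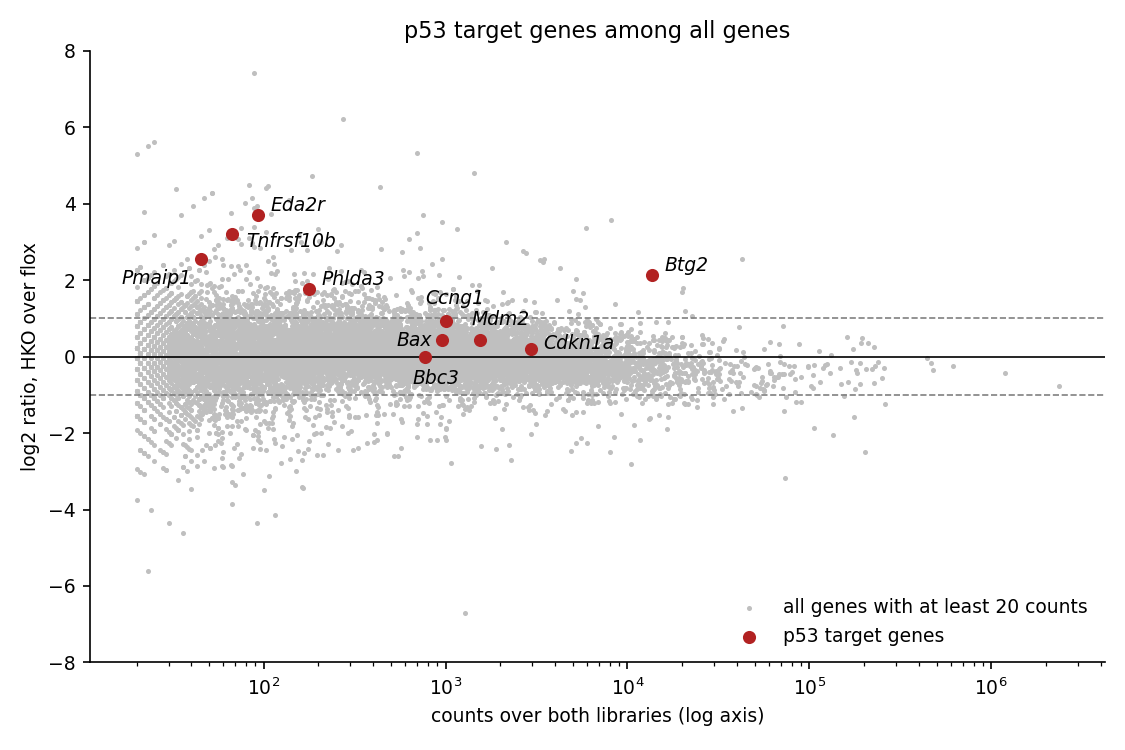
Log2 ratio of the library labelled HKO over the library labelled flox against the counts over both libraries (log axis) for the 14421 genes with at least 20 counts (gray) and the 10 p53 target genes (red), with dashed lines at 2-fold. Eda2r, Tnfrsf10b and Pmaip1 lie among scarce genes, where the spread is wide, and Btg2 lies among abundant genes, of which 1.83% are past 2-fold higher.

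A wider list held 34 other p53 targets, all with enough counts. In it 8 genes were past 2-fold higher and 1 lower in the library labelled HKO, with a median log2 ratio of 0.10, beside the 5.73% higher and 4.66% lower among all genes. With scaling by total counts 12 were higher and 0 lower, beside 10.4% and 2.84%, and with a minimum of 100 counts 5 of 28 were higher. With TMM scaling the interval lay above equality for 15 of them and below it for 8. Psrc1, a spindle protein gene, had 27 counts in the library labelled HKO and 5 in the library labelled flox (4.84-fold, 1.98 to 17.4). Gdf15, a secreted stress hormone that p53 and the integrated stress response both induce, had 15317 counts in the library labelled HKO and 4608 in the library labelled flox (3.21-fold, 3.11 to 3.32). Gtse1, whose product binds p53, had 72 counts in the library labelled HKO and 27 in the library labelled flox (2.55-fold, 1.64 to 4.18), and the autophagy regulator Dram1 had 36 counts in the library labelled HKO and 14 in the library labelled flox (2.43-fold, 1.31 to 4.99). The difference in Gdf15 was thus far better measured than those of Psrc1 and Dram1, which had under 20 counts in the library labelled flox. The other higher genes were Polk, Gadd45a, Plk2 and Aen, at 2.40, 2.34, 2.30 and 2.11-fold, and these were named after their values were seen. Trp53inp2, the only lower one and also named after its value was seen, had 2475 counts in the library labelled HKO and 5525 in the library labelled flox, 2.31-fold lower, and is not past 2-fold with scaling by total counts.

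Genes around p53 itself gave no call with TMM scaling. Of 24 relatives and regulators of p53, 21 had enough counts and 0 were past 2-fold in either direction, with a median log2 ratio of 0.14. With scaling by total counts 1 of them was past 2-fold higher. The most abundant were Rpl5, at 7284 counts in the library labelled HKO and 4478 in the library labelled flox (1.57-fold), and Rpl11, at 5718 counts in the library labelled HKO and 5151 in the library labelled flox (1.07-fold). These ribosomal proteins bind Mdm2 when ribosome assembly is disturbed, and Rpl5 shares 45.2% and Rpl11 15.6% of its sequence words with other genes, so their counts are uncertain. A further list without Cdkn1a held CDK inhibitors, G1 kinases, G1 cyclins, Pcna and Rb1. Among its 14 measured genes 0 were past 2-fold either way, with a median of -0.01 that becomes 0.26 with scaling by total counts. The abundant Cdk4 had 788 counts in the library labelled HKO and 663 in the library labelled flox, and Ccnd3 had 510 counts in the library labelled HKO and 679 in the library labelled flox.

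Genes that p21 and the DREAM complex keep low in arrested cells were not lower as a group. Of 18 listed, 13 had enough counts, 3 were past 2-fold higher and 0 lower, with a median of 0.42. The shares over all genes were 5.73% higher and 4.66% lower. Among all genes with 20 to under 100 counts 11.4% were past 2-fold higher. Top2a, a topoisomerase of dividing cells, had 51 counts in the library labelled HKO and 9 in the library labelled flox (5.24-fold, 2.67 to 12.7). The proliferation marker Mki67 had 47 counts in the library labelled HKO and 16 in the library labelled flox (2.78-fold, 1.58 to 5.37), and the mitotic kinase gene Aurkb had 16 counts in the library labelled HKO and 4 in the library labelled flox (3.55-fold, 1.25 to 15.9). All 3 had under 20 counts in the library labelled flox, and with a minimum of 100 counts 0 of 2 genes were past 2-fold.

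Close relatives of the 10 genes gave 2 past 2-fold higher and 0 lower among 12 measured. Their median log2 ratio was 0.03, with 6 above and 6 below equality. The shares over all genes were 5.73% higher and 4.66% lower, or 10.4% and 2.84% with scaling by total counts. Phlda2, the imprinted relative of Phlda3, had 81 counts in the library labelled HKO and 7 in the library labelled flox (10.5-fold, 5.19 to 28.7). Phlda1, of the same family, had 412 counts in the library labelled HKO and 167 in the library labelled flox (2.38-fold, 1.99 to 2.87), although 33.0% of its exonic bases lie in another gene. Phlda2 had under 20 counts in the library labelled flox, so it too met the minimum only through the library labelled HKO. Of 21 measured partners and executors of the death genes, 0 were past 2-fold higher and 1 was lower, with a median of 0.12, and 2 were higher with scaling by total counts. That gene was Bmf, which encodes a BH3-only protein, with 136 counts in the library labelled HKO and 375 in the library labelled flox, 2.84-fold lower.

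**Figure D4:**
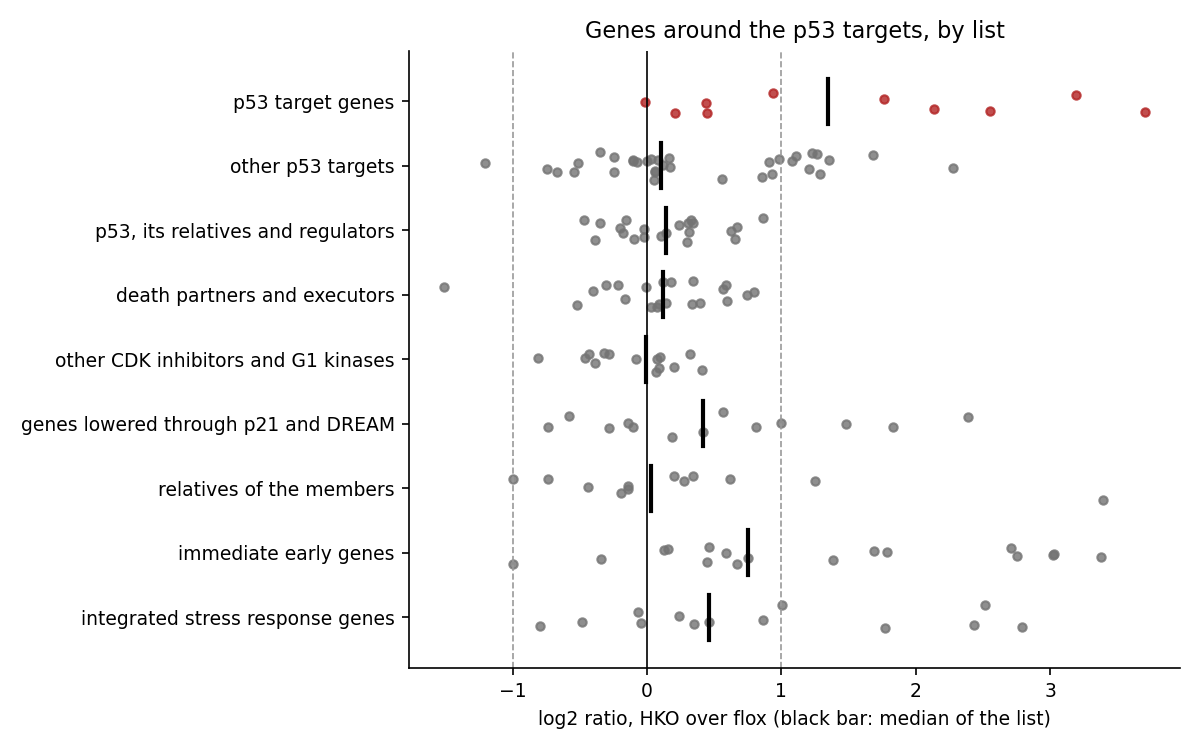
Log2 ratio of the library labelled HKO over the library labelled flox for every measured gene of the p53 target set (red) and of 8 related lists (gray), with a black bar at each list's median and dashed lines at 2-fold. The medians are 1.35 for the p53 targets, 0.10 for the other p53 targets and 0.75 for the immediate early genes.

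Other groups of genes moved beside the p53 targets. Of 17 measured immediate early genes 8 were past 2-fold higher and 0 lower, with a median of 0.75. Over all genes 5.73% were past 2-fold higher and 4.66% lower. With a minimum of 100 counts 7 of 14 immediate early genes were past 2-fold higher. Their summed levels were 2719 CPM in the library labelled HKO and 1292 CPM in the library labelled flox. Atf3 had 5394 counts in the library labelled HKO and 502 in the library labelled flox (10.4-fold, 9.48 to 11.4), and Myc had 2341 counts in the library labelled HKO and 336 in the library labelled flox (6.73-fold, 6.01 to 7.58). Fosb, with 180 counts in the library labelled HKO and 21 in the library labelled flox, was 8.12-fold higher. Egr2, with 29 counts in the library labelled HKO and 3 in the library labelled flox, had a ratio without the prior of 9.35 (2.90 to 48.0). Egr2 met the minimum only through the library labelled HKO. Of 13 measured integrated stress response genes 5 were past 2-fold higher and 0 lower, with a median of 0.46. With a minimum of 100 counts 5 of 12 were past 2-fold higher. The higher genes were led by Nupr1 at 6.91-fold (4.45 to 11.7), Psat1 at 5.71-fold, Fgf21 at 5.39-fold and Vldlr at 3.42-fold. The part of these groups in the values of Btg2, Gdf15, Tnfrsf10b and Eda2r was not tested.

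Among 12 fasting and glucocorticoid genes 0 were past 2-fold higher and 2 lower, Pck1 at 2.37-fold lower and Tsc22d3 at 2.08-fold lower, with a median of -0.32. Neither is past 2-fold with scaling by total counts, where the median is -0.05. Beside these calls and those below, the shares over all genes were 5.73% past 2-fold higher and 4.66% lower. With scaling by total counts these shares were 10.4% and 2.84%. Markers of cell types also differed. The 8 hepatocyte markers were all below equality with TMM scaling, at a median of -0.73 and with none past 2-fold, whereas with scaling by total counts 6 were below and 2 above equality. Of 9 Kupffer cell and macrophage markers 4 were past 2-fold higher and 0 lower, Marco, Cd68, Mpeg1 and Vsig4 (7 with scaling by total counts), with summed levels of 650 CPM in the library labelled HKO and 392 CPM in the library labelled flox. Monocyte markers summed to 94.9 CPM in the library labelled HKO and 51.7 CPM in the library labelled flox, with 2 of 3 measured past 2-fold higher and S100a4 at 0 counts in both libraries. The monocyte markers past 2-fold had under 100 counts over both libraries. With a minimum of 100 counts 1 was measured, at a log2 ratio of 0.84, and 0 were past 2-fold. Neutrophil markers summed to 1.98 CPM in the library labelled HKO and 1.69 CPM in the library labelled flox, T and NK cell markers to 2.97 CPM in the library labelled HKO and 1.33 CPM in the library labelled flox, and B and plasma cell markers to 10.1 CPM in the library labelled HKO and 6.90 CPM in the library labelled flox. Endothelial markers summed to 278 CPM in the library labelled HKO and 324 CPM in the library labelled flox, and stellate cell markers to 355 CPM in the library labelled HKO and 272 CPM in the library labelled flox, with 1 stellate marker past 2-fold higher and 1 lower of 7. Cholangiocyte markers summed to 66.5 CPM in the library labelled HKO and 76.0 CPM in the library labelled flox, with 1 of 5 past 2-fold higher (Sox9) and 2 lower (Krt19 and Krt7), and erythroid markers to 232 CPM in the library labelled HKO and 271 CPM in the library labelled flox. The direction of 3 of these sums turns with scaling by total counts. Endothelial markers are then at 305 CPM in the library labelled HKO and 295 CPM in the library labelled flox, cholangiocyte markers at 72.9 CPM in the library labelled HKO and 69.3 CPM in the library labelled flox, and erythroid markers at 254 CPM in the library labelled HKO and 247 CPM in the library labelled flox. The part of cell composition in the ratios of the p53 targets was not tested.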

How the data were processed

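RNA pooled over 4 livers per genotype was made into libraries with a NEBNext kit. The authors deposited counts of reads per gene, not normalized. The submitters' processing notes name TopHat2, HTSeq 0.6.1 and GRCm38, whereas the published methods state Hisat2 and HTSeq, so the aligner behind the files is uncertain. The strand setting and molecular tags are not given in the sources used here, so opposite overlapping genes cannot be separated and PCR copies may count as reads.

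Identifiers were matched to GENCODE M21 (52489 matched, 147 not), and 311 unannotated loci, with 0.261% of the counts in the library labelled HKO and 0.328% in the library labelled flox, were left out. Ratios used TMM factors from edgeR 4.0.16 (R 4.3.3), a prior of 0.5 counts and exact binomial 95% intervals. No test or p-value was computed, since each genotype has 1 library. DESeq2 1.42.0 gave size factors for an alternative only. Single-library intervals are exact Poisson. Exon overlap is the share of a gene's exonic bases inside another gene, and shared sequence the share of its 100-base words found in another gene. Promoter windows came from RefSeq (GRCm38.p6). A decamer pair was scored with the C and G of each core kept.

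The members and lists were chosen with earlier results of these data known. All 10 members, Mettl3 and Trp53 are named, with up to 4 genes past 2-fold by size from each other pathway list, or its 2 most abundant genes where none was past. Alternatives covered scaling, count minimum, prior, gene type and fold limit, and centring by exonic length or GC content in 20 bins was added after the values were seen. The calculations were tested on simulated libraries that held counting error only, so the simulation says nothing about variation between pools or mice. Python 3.11.15, NumPy 2.4.6, pandas 2.3.3, SciPy 1.17.1 and matplotlib 3.10.9 were used.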

Additional observations from a re-analysis of the deposited data

How the results depend on the processing

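Each genotype has 1 library, so no library could be left out, and the intervals miss variation between mice and preparations. No paired analysis was possible because each genotype has 1 library. Of 97 values of the 10 genes under the alternatives, 82 stayed inside the counting interval and 15 left it, and 5 changed sign, all of Bbc3. The count minimums and the restriction to protein-coding genes cannot change the ratio of a gene. Their values are among the 82 by construction, so 82 of 97 is not a measure of robustness. No p53 target was past 2-fold lower under any alternative run. The number past 2-fold higher was 5 and became 6 with scaling by total counts, by totals without the 10 most abundant genes, or with a 1.5-fold limit, through Ccng1. With a minimum of 100 counts 7 genes remained measured and 2 were past 2-fold higher, by construction, since the 3 scarce death genes leave. Their median log2 ratio, 1.35, was 1.61 with total counts, 1.57 without the 10 most abundant genes and 0.45 with the minimum of 100. That of the arrest genes, 1.35, was 1.61 and 1.57 under the same scalings, and that of the death genes, 2.56, was 0.21 with the minimum of 100. Over all genes, 826 past 2-fold higher became 1501 with total counts, 1366 without the 10 most abundant genes, 458 with the minimum of 100 and 1870 with a 1.5-fold limit. The 672 lower became 409 with total counts, 316 with the minimum of 100 and 1487 with a 1.5-fold limit. The split of higher to lower calls thus moved with scaling, by a shift of all log2 ratios of 0.27.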
